A study of Mus musculus with 8 samples.

Results

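The 7 genes described here encode inhibitory receptors of T cells, namely Ctla4, Pdcd1, Lag3, Havcr2, Btla, Cd160 and Cd5. Their members were taken as every non-control probe whose gene name in the array files is 1 of these 7, which gave 8 probes of the 41174 on the array and 7 genes of 27670 distinct names. Havcr2 has 2 probes and each of the others has 1. Expression was measured on 8 single-colour arrays of sorted mouse CD4 T cells, with 2 arrays in each of 4 groups named Treg (regulatory T cells), CD44hi, CD44lo and naive. All groups were taken from spleen and lymph nodes pooled together, from male mice of the strain C57BL/6 aged 15 weeks, and the series carries the name Ox40-cre/ROSA-YFP, a lineage-marking mouse in which a cre placed under the control of Ox40 (Tnfrsf4) turns on a yellow fluorescent protein for good. The labels give neither the antibodies of the sort nor the reporter status of a group beyond the group names, and do not say how many mice were pooled.

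Inhibitory receptors limit T cell activation after antigen has been seen. CTLA-4 takes the ligands CD80 and CD86 away from the costimulatory receptor CD28. PD-1, the product of Pdcd1, recruits tyrosine phosphatases to the antigen receptor complex, LAG-3 binds MHC class II on the antigen-presenting cell, and TIM-3, the product of Havcr2, is known from T helper 1 cells and from a share of tissue regulatory T cells. BTLA and CD160 both bind HVEM, encoded by Tnfrsf14, and CD5 is a scavenger-type receptor carried by all T cells that dampens antigen receptor signals. CTLA-4 is in addition held at a high level by regulatory T cells and is needed for their function.

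Promoter sequences are shown for Ctla4 and Pdcd1, since both genes were higher in Treg, CD44hi and CD44lo than in naive cells. RefSeq held a window of 250 bases before to 50 bases after the annotated start (GRCm38.p6) for 6 of the 7 genes, all but Lag3. Capitals mark GGAAA or its reverse complement TTTCC, the short core shared by NFAT sites, searched on both strands and without overlap with the other motif searched, TGANTCA, the core of AP-1 sites.
Ctla4 promoter, chr1:60908775-60909074, plus strand: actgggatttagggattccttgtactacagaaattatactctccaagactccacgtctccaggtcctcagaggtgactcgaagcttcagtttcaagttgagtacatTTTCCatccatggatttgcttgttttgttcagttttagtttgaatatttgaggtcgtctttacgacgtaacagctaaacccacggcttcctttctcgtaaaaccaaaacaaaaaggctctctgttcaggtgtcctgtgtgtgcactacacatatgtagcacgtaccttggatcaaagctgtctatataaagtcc
Pdcd1 promoter, chr1:94052504-94052803, minus strand: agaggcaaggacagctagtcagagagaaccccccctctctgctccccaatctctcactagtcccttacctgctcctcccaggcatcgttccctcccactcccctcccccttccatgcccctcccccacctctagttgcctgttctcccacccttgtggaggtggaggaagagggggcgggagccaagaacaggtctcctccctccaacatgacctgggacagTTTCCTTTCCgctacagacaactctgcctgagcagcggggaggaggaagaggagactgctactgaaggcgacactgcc
The Ctla4 window holds 1 such core and the Pdcd1 window holds 2 in a row, a short way upstream of the annotated start. It also has 1 match in the window of Cd5, which was not called in any comparison, and 1 match in 1 of the 2 Cd160 windows, and in neither the Havcr2 nor the Btla window. Of 32851 windows of the same length, 61.3% hold GGAAA or TTTCC, so its presence is common. TGANTCA lies in 7.8% of the windows, and among these genes 1 match lies in the Havcr2 window.

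The 7 brightest probes of the genes were well above background on 8 of 8 arrays and none was saturated. Values are the log2 of the processed signal over the 75th percentile of the array, so that 0 is the level below which 75 percent of an array's probes lie and each unit is a doubling, and they are compared for the same probe only. A gene was called where limma's moderated test over all 17996 tested genes gave a Benjamini-Hochberg adjusted p under 0.05. The 3 comparisons with naive share the same naive arrays, so their values are given side by side and not as independent results. In such bulk samples, fewer cells of a type and less RNA per cell cannot be told apart.

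Against naive cells, inhibitory receptors were called higher and not lower. Of the 7 genes, 5 were higher in Treg (Ctla4, Pdcd1, Lag3, Havcr2 and Cd160), where 11.6% of all tested genes were called higher and 21.9% were called at all. In CD44hi the same 5 and Btla were higher, 6 of 7, against 13.2% of all genes called higher and 27.8% called at all. In CD44lo, 3 of 7 were higher (Ctla4, Pdcd1 and Lag3), against 4.53% called higher and 5.29% called at all. Without naive array 1 the receptors called were again 5, 6 and 3, while the genes called in all were 9200 in Treg, 9231 in CD44hi and 7191 in CD44lo, against 3941, 4998 and 952 with all arrays. The median log2 difference of the 7 genes from naive was 3.27 in Treg, 3.04 in CD44hi and 1.47 in CD44lo, beside medians over all tested genes of -0.20, -0.15 and -0.13. The values of both arrays lay apart from both naive arrays for 6 of the 7 genes in Treg, 6 in CD44hi and 5 in CD44lo, and such separation held for 63.5%, 62.6% and 54.7% of all tested genes.

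**Figure D1:**
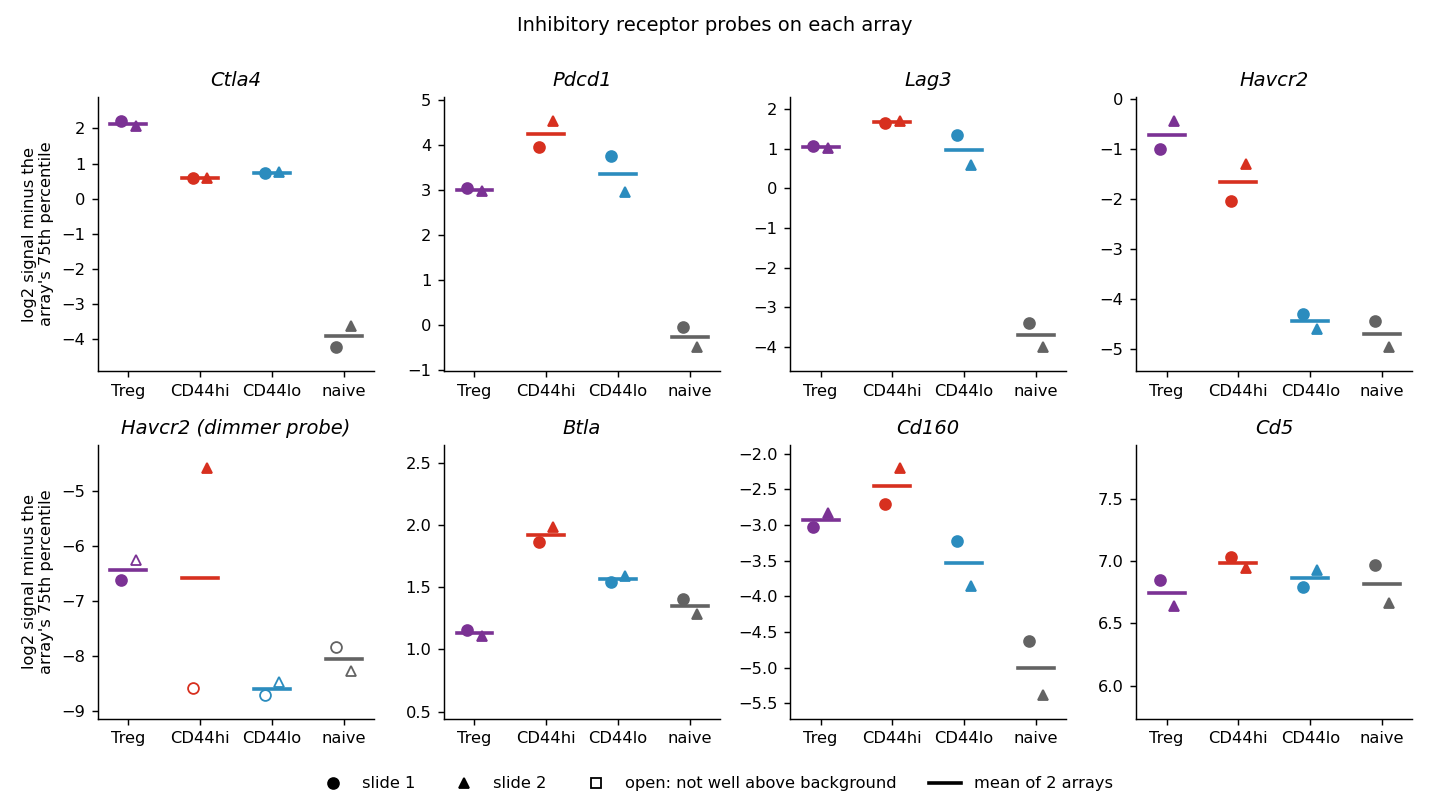
Normalised log2 signal of the 8 inhibitory receptor probes on each of the 8 arrays (y axis: log2 of the signal over the 75th percentile of its array, with a separate scale in each panel; x axis: group). Circles are arrays of slide 1, triangles arrays of slide 2, open symbols arrays where the probe was not well above background, and lines the mean of 2 arrays; the naive arrays lie lowest for Ctla4, Pdcd1, Lag3 and Cd160, and Cd5 spans 6.64 to 7.03.

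Ctla4, the receptor that competes with CD28, was highest in Treg and lowest in naive cells. Its normalised log2 signal was 2.21 and 2.05 on the Treg arrays, 0.58 and 0.60 on the CD44hi arrays, 0.76 and 0.72 on the CD44lo arrays and -3.60 and -4.22 on the naive arrays. Treg lay above all the other arrays, CD44hi and CD44lo lay close together, and naive lay far below. Against naive, Ctla4 rose 66.1-fold in Treg (log2 6.05 ± 0.22, adjusted p = 2.54e-05), 22.7-fold in CD44hi (log2 4.50 ± 0.22, adjusted p = 5.09e-05) and 25.2-fold in CD44lo (SE, n = 2 arrays a group, limma). Ordered by the difference of Treg from naive, Ctla4 was gene 61 of the 17996 tested. Within slides 1 and 2 the log2 differences from naive were 6.44 and 5.66 in Treg, 4.80 and 4.21 in CD44hi, and 4.95 and 4.37 in CD44lo. The sizes differed between treatments of the background, with 36.4-fold, 12.4-fold and 14.0-fold for Treg, CD44hi and CD44lo in the authors' deposited table, and 30.6-fold, 10.8-fold and 11.9-fold after normexp correction.

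Treg also carried more Ctla4 RNA than CD44hi and CD44lo. The difference was log2 1.54 ± 0.22 over CD44hi (2.92-fold, limma adjusted p = 0.00823), with 1.64 on slide 1 and 1.45 on slide 2. Over CD44lo it was log2 1.39 ± 0.22 (2.62-fold, limma adjusted p = 0.0171), with 1.49 and 1.29 on the slides. Its threshold was missed over CD44hi without Treg array 1 (adjusted p = 0.0712) and over CD44lo without any 1 array of Treg or CD44lo (adjusted p between 0.0927 and 0.116), while the log2 difference over CD44lo stayed between 1.31 and 1.47. CD44hi and CD44lo did not differ past the threshold (log2 -0.15, 95% interval -0.68 to 0.37, adjusted p = 0.741).

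Pdcd1, which encodes PD-1, was highest in CD44hi. Its normalised log2 signal was 3.03 and 2.96 in Treg, 3.94 and 4.53 in CD44hi, 2.94 and 3.76 in CD44lo, and -0.50 and -0.05 in naive. The CD44hi arrays lay above all the others, the Treg arrays fell within the range of the CD44lo arrays, and the naive arrays lay below every other array. The rise over naive was 9.68-fold in Treg (log2 3.27 ± 0.33, adjusted p = 0.000815), 22.8-fold in CD44hi (log2 4.51 ± 0.33, adjusted p = 0.000199) and 12.4-fold in CD44lo (log2 3.63 ± 0.33, adjusted p = 0.00136). Treg had less Pdcd1 signal than CD44hi by log2 -1.24 ± 0.33, which missed the threshold (adjusted p = 0.0769, -0.91 on slide 1 and -1.57 on slide 2). That difference was called in the authors' deposited table (log2 -1.20, adjusted p = 0.0378), after normexp correction (adjusted p = 0.0363) and with an intensity trend in the variance (adjusted p = 0.0326). CD44hi against CD44lo gave log2 0.88 (95% interval 0.09 to 1.67, adjusted p = 0.173), with 0.18 on slide 1 and 1.59 on slide 2.

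Lag3, a CD4-related receptor for MHC class II, was highest in CD44hi as well. It measured 1.06 and 1.03 in Treg, 1.65 and 1.70 in CD44hi, 0.59 and 1.33 in CD44lo, and -4.01 and -3.40 in naive on the same log2 scale. The CD44hi arrays lay above the rest, the CD44lo arrays lay on either side of Treg, and naive was far below. The rise over naive was 26.9-fold in Treg (log2 4.75 ± 0.29, adjusted p = 0.000124), 41.6-fold in CD44hi (log2 5.38 ± 0.29, adjusted p = 7.06e-05) and 25.4-fold in CD44lo (log2 4.66 ± 0.29, adjusted p = 0.000339). In the authors' deposited table these were 15.3-fold, 23.8-fold and 14.2-fold, all called. Among Treg, CD44hi and CD44lo no pair was called for Lag3 in the fit of all arrays, though Treg was below CD44hi when those 4 arrays alone were fitted (log2 -0.63, adjusted p = 0.0426). The intervals reached -1.34 to 0.07 for Treg minus CD44hi, -0.62 to 0.79 for Treg minus CD44lo and 0.01 to 1.42 for CD44hi minus CD44lo.

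Havcr2, which encodes TIM-3, separated Treg and CD44hi from CD44lo. Its brighter probe measured -1.001 and -0.45 in Treg, -2.05 and -1.30 in CD44hi, -4.61 and -4.31 in CD44lo, and -4.98 and -4.45 in naive. The CD44lo arrays overlapped the naive arrays, and every Treg and CD44hi array lay above both. Havcr2 rose over naive 15.9-fold in Treg (log2 3.99 ± 0.33, adjusted p = 0.000368) and 8.21-fold in CD44hi (log2 3.04 ± 0.33, adjusted p = 0.000964), with 3.45 and 4.53 on the slides in Treg and 2.40 and 3.67 in CD44hi. For CD44lo the difference from naive was log2 0.25 (95% interval -0.54 to 1.04, adjusted p = 0.646), and its sign turned to -0.12 after normexp correction. Over CD44lo, Havcr2 rose 13.3-fold in Treg (log2 3.73 ± 0.33, adjusted p = 0.00301) and 6.88-fold in CD44hi (log2 2.78 ± 0.33, adjusted p = 0.00467). In the authors' deposited table the rises over naive were 7.09-fold in Treg and 4.10-fold in CD44hi, and those over CD44lo 6.43-fold and 3.72-fold. Treg exceeded CD44hi by log2 0.95, which was not called (95% interval 0.16 to 1.74, adjusted p = 0.158).

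The second Havcr2 probe is shown because it was much dimmer than the brighter one. It lies at chr11:46413172-46413231 (mm7, plus strand), 24729 bases upstream of the brighter probe at chr11:46437901-46437960, and its letters have no capitals because no part of them is set apart.
Havcr2 second probe: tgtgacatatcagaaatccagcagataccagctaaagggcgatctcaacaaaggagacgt
This probe measured -6.62 and -6.26 in Treg, -8.58 and -4.60 in CD44hi, -8.47 and -8.70 in CD44lo, and -8.26 and -7.83 in naive. Its mean differed from naive by log2 1.61 in Treg and 1.46 in CD44hi, with the sign of the brighter probe. In CD44lo the difference was -0.54, with the opposite sign. The second probe was well above background on 2 of 8 arrays only, Treg array 1 and CD44hi array 2, and the CD44hi arrays differed from each other by more than any 2 group means did. With the mean of both probes in place of the brighter one, Havcr2 was still called in Treg over naive, whereas 3 calls were lost: CD44hi over naive (log2 2.25, adjusted p = 0.0581), Treg over CD44lo (log2 2.94, adjusted p = 0.0732) and CD44hi over CD44lo (log2 2.39, adjusted p = 0.0963).

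Btla and Cd160, the pair of HVEM receptors, were unlike each other in size of change. Btla measured 1.16 and 1.11 in Treg, 1.87 and 1.98 in CD44hi, 1.59 and 1.54 in CD44lo, and 1.29 and 1.41 in naive. The arrays of each group lay together, in the order CD44hi, CD44lo, naive and Treg, and no 2 groups overlapped. Btla was 1.49-fold higher in CD44hi than in naive (log2 0.58 ± 0.14, limma adjusted p = 0.0240, 0.46 and 0.69 on the slides) and 1.73-fold lower in Treg than in CD44hi (log2 -0.79 ± 0.14, limma adjusted p = 0.0186, -0.71 and -0.87 on the slides). Both calls were lost without any 1 array of Treg, CD44hi or CD44lo (adjusted p between 0.0568 and 0.158 for CD44hi over naive and between 0.0588 and 0.145 for Treg against CD44hi), with log2 values of 0.52 to 0.63 and -0.85 to -0.73. Treg was also below naive by log2 -0.21 (95% interval -0.55 to 0.12, adjusted p = 0.291).

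Cd160 was dim on every array and lowest in naive. It measured -3.02 and -2.83 in Treg, -2.70 and -2.21 in CD44hi, -3.85 and -3.22 in CD44lo, and -5.38 and -4.62 in naive. Naive lay below all other arrays, and the other 3 groups were within 2 units of one another. Cd160 rose 4.22-fold in Treg (log2 2.08 ± 0.33, adjusted p = 0.00620, 1.60 and 2.55 on the slides) and 5.83-fold in CD44hi (log2 2.54 ± 0.33, adjusted p = 0.00218, 1.92 and 3.17 on the slides). In CD44lo it was 2.76-fold above naive and missed the threshold (log2 1.47 ± 0.33, adjusted p = 0.0622), but was called among probes above background on all 8 arrays (adjusted p = 0.0494) and with an intensity trend in the variance (adjusted p = 0.0391). The authors' deposited table gave 2.06-fold, 2.65-fold and 1.55-fold for the 3 groups, and normexp correction 1.62-fold, 2.10-fold and 1.32-fold, with Treg and CD44hi called in both.

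Cd5, a receptor that all T cells carry, gave a bright and nearly level signal. It measured 6.85 and 6.64 in Treg, 7.03 and 6.94 in CD44hi, 6.93 and 6.79 in CD44lo, and 6.66 and 6.97 in naive. Cd5 was called in none of the 6 comparisons. Its 95% intervals against naive were -0.49 to 0.34 in Treg, -0.24 to 0.58 in CD44hi and -0.37 to 0.46 in CD44lo, so any difference larger than 0.58 lies outside them at this scaling. At 2 other scalings CD44hi was called above naive, by log2 0.68 in the authors' deposited table (adjusted p = 0.00946) and by 0.70 after quantile normalization (adjusted p = 0.0147), and the sign for Treg turned to 0.30 and 0.36 there, neither called.

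**Figure D2:**
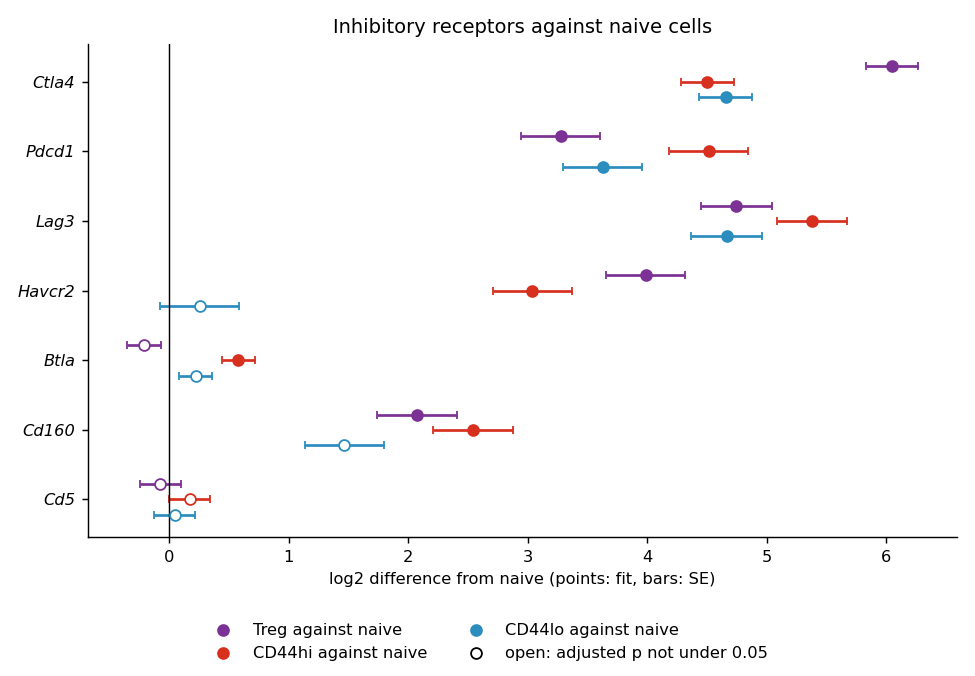
Log2 difference of each inhibitory receptor from naive cells in the fit of all 8 arrays (x axis; points, bars are standard errors), for Treg, CD44hi and CD44lo; open points have an adjusted p not under 0.05. Ctla4, Pdcd1 and Lag3 lie between 3.27 and 6.05 in all 3 groups, and Havcr2 at 0.25 in CD44lo against 3.04 or more in the others. Btla lies at 0.58 in CD44hi, a filled point, and at -0.21 in Treg and 0.22 in CD44lo, and Cd5 lies near 0.

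Fewer receptors separated Treg, CD44hi and CD44lo from one another. Treg against CD44hi called Ctla4 higher and Btla lower, 2 of 7, where 8.19% of all genes were called, 4.15% higher and 4.04% lower. Treg against CD44lo called Ctla4 and Havcr2 higher, 2 of 7, against 5.56% of all genes called, 3.70% higher and 1.87% lower. CD44hi against CD44lo called Havcr2 alone, higher, 1 of 7, against 9.37% of all genes called, 6.06% higher and 3.31% lower. Without Treg array 1, Treg against CD44hi called 0 of 7, and without either CD44hi, either CD44lo or the other Treg array it called 1. Treg against CD44lo called 1 without either array of Treg or of CD44lo. The median log2 difference of the 7 genes was -0.47 for Treg against CD44hi, 0.08 for Treg against CD44lo and 0.72 for CD44hi against CD44lo, beside medians of all genes of -0.04, -0.07 and -0.04. Between CD44hi and CD44lo the arrays did not overlap for 7 of 7 members, with CD44hi higher for 6 and lower for Ctla4, and 67.8% of all tested genes were separated in this way. Treg and CD44hi were likewise apart for 7 of 7 (59.6% of all genes), with Treg higher for Ctla4 and Havcr2.

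**Figure D3:**
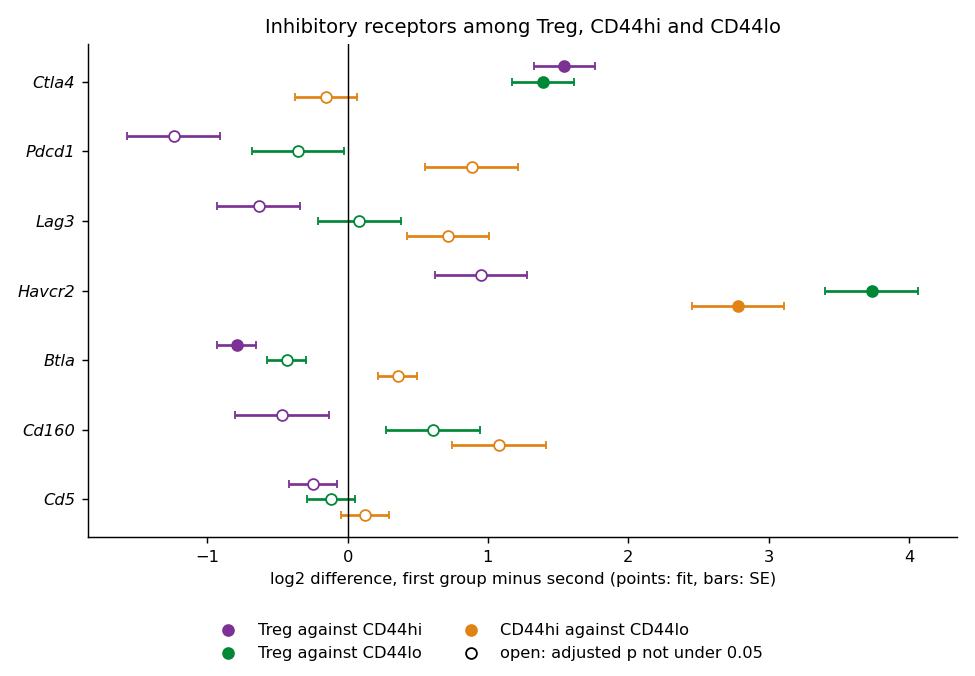
Log2 difference of each inhibitory receptor between Treg, CD44hi and CD44lo in the fit of all 8 arrays (x axis; points, bars are standard errors); open points have an adjusted p not under 0.05. The filled points are Ctla4 in Treg over both other groups (1.54 and 1.39), Havcr2 over CD44lo (3.73 in Treg, 2.78 in CD44hi) and Btla in Treg against CD44hi (-0.79).

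The order of the group means thus differed between members. Ctla4 and Havcr2 were highest in Treg, and Pdcd1, Lag3, Btla, Cd160 and Cd5 in CD44hi. Naive was lowest for Ctla4, Pdcd1, Lag3, Havcr2 and Cd160, and Treg was lowest for Btla and Cd5. Neighbours in these orders that were not called apart were CD44lo and CD44hi for Ctla4, all neighbours among the 3 non-naive groups for Pdcd1 and Lag3, Treg and CD44hi as well as CD44lo and naive for Havcr2, and all neighbours for Btla, Cd160 and Cd5. Over the 8 arrays, Pearson's r between members was 0.98 for Pdcd1 and Lag3, 0.94 for Cd160 with each of these, 0.93 for Ctla4 and Lag3, 0.72 for Btla and Cd5 and 0.04 for Ctla4 and Btla. These 8 points fall into 4 groups. For Ctla4, Pdcd1, Lag3 and Cd160 naive lay apart from the rest, so r among them mainly restates the group means. For Btla and Cd5 the naive mean lay between those of CD44lo and Treg (1.35 between 1.57 and 1.13 for Btla).

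Among all tested genes with a current symbol, those whose values over the 8 arrays were most like a member's are given by Pearson's r (n = 8 arrays, as a description). For Ctla4 they were Mapk12 (r = 0.9966), a stress-activated kinase, Lamc1 (0.9953), a laminin chain, and Myo3b (0.9937). For Pdcd1 they were Serpina9 (0.9984), Tshz2 (0.9977) and Spock2 (0.9976). For Lag3 the first was Maf (0.9971), a transcription factor of cytokine-producing T cells, followed by Slc43a1 and Ttc39c (0.9970 each). Havcr2 was followed by Ank3 (0.9937), Nedd4 (0.9896) and Cpe (0.9883), of which Ank3 also showed a large difference from naive in Treg (log2 3.49) and CD44hi (3.05) and a small one in CD44lo (0.26). Btla was most like Prkcz (0.9907), an atypical protein kinase C, Rinl (0.9877) and Dleu2 (0.9875). Cd160 was most like Icos (0.9989), a costimulatory receptor, then Zfp821 (0.9963) and Dynlt3 (0.9949). Cd5 had no gene above r = 0.95, its closest being Dgkeos (0.9359), Gfm2 (0.9258) and Flrt2 (0.9242), while 27 genes passed that level for Btla, 63 for Havcr2, 159 for Ctla4, 251 for Pdcd1, 277 for Lag3 and 353 for Cd160.

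The ligands of these receptors were measured in the T cells themselves. Of 9 ligand genes tested, 4 were higher and 1 lower in Treg than in naive, 4 higher and 1 lower in CD44hi, and 2 higher and 0 lower in CD44lo, with list medians of 0.53, 0.06 and -0.01. Of all tested genes, 11.6% were called higher and 10.3% lower in Treg, 13.2% and 14.5% in CD44hi, and 4.53% and 0.761% in CD44lo. The medians of all tested genes were -0.20, -0.15 and -0.13. Pdcd1lg2, which encodes the PD-1 ligand PD-L2, rose over naive by log2 4.50 ± 0.23 in Treg, 3.83 in CD44hi and 2.80 in CD44lo (limma adjusted p = 6.59e-05, 0.000102 and 0.000893). Cd274, which encodes the other PD-1 ligand, was not called in any comparison, and its difference from naive in Treg was log2 0.53 (adjusted p = 0.0985). Cd80, 1 of the CTLA-4 ligands, was not well above background in naive and was at least 10.6-fold higher in Treg, 5.88-fold in CD44hi and 3.79-fold in CD44lo, where each bound sets the group's mean against the lowest signal counted as above background. Cd86, the other CTLA-4 ligand, rose by log2 2.35 in Treg (adjusted p = 0.000238) and 0.78 in CD44hi (adjusted p = 0.0183), and Treg was above CD44hi and CD44lo as well (1.57 and 1.71, adjusted p = 0.00343 and 0.00479). Lgals3, a galectin reported to bind LAG-3, rose by log2 3.14 in Treg and 5.13 in CD44hi. Tnfrsf14, which encodes HVEM, was lower in Treg by log2 -0.85 (adjusted p = 0.0146) and Ceacam1 was lower in CD44hi by -0.72 (adjusted p = 0.0425), where 1 of its other probes had the opposite sign (0.13).

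Of 9 costimulatory genes, which are receptors apart from Cd40lg, 5 were higher and 1, Cd40lg, lower in Treg than in naive, 4 higher and 0 lower in CD44hi, and 1 higher and 0 lower in CD44lo, with list medians of 0.52, 0.36 and -0.01. Shares called over all tested genes were 21.9%, 27.8% and 5.29% in the same order of groups. Icos, a CD28 relative, rose by log2 1.86 in Treg and 2.33 in CD44hi, and Tnfrsf9 (4-1BB) rose by 3.25 in Treg, 1.29 in CD44hi and 1.57 in CD44lo, while its second probe, too dim to be tested, had the opposite sign (-0.81, -0.28 and -0.29). Slamf1 rose by 1.58 in Treg and 0.92 in CD44hi, and Cd226, an activating receptor, rose by 0.99 in CD44hi. Cd40lg, the ligand by which helper T cells stimulate B cells, was lower in Treg by log2 -2.19 (adjusted p = 0.000273). Cd28 itself was not called, with log2 -0.32, 0.36 and -0.01 in Treg, CD44hi and CD44lo.

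Other inhibitory receptors had 1 higher and 1 lower in Treg than in naive, 1 higher and 0 lower in CD44hi, and 1 higher and 1 lower in CD44lo, of 7 tested. The share of all tested genes called was 21.9% in Treg, 27.8% in CD44hi and 5.29% in CD44lo. Of the 11 listed, Tigit and Cd101 have no probe of that name in the files, and Klra1 and Pilra were too dim to be tested. Klrg1, a lectin-like receptor that binds cadherins, was not well above background in naive and was at least 364-fold higher in Treg, 126-fold in CD44hi and 48.4-fold in CD44lo (adjusted p = 3.52e-05, 5.06e-05 and 0.000254). Lair1, a collagen receptor, was lower in Treg (log2 -1.73, adjusted p = 0.00378), and Cd244a, a receptor of the SLAM family, was lower in CD44lo (log2 -2.48, adjusted p = 0.0458). Cd244a was dim and variable in CD44lo (mean -7.05, SD 1.19), and its 2 other probes, too dim to be tested, gave smaller differences of -0.59 and -1.20. The other 4 receptors tested were not called against naive, and the list medians were -0.60, 0.07 and -0.33 in Treg, CD44hi and CD44lo.

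Against naive, 21.9% of all tested genes were called in Treg, 27.8% in CD44hi and 5.29% in CD44lo. Of 19 phosphatases, ligases and adaptors that act below the receptors, 4 were higher and 2 lower in Treg than in naive, 6 higher and 2 lower in CD44hi, and 1 higher and 0 lower in CD44lo, with list medians of 0.18, 0.32 and 0.23. These counts depended on single arrays: without naive array 1 they were 13, 12 and 6 in either direction, and without Treg array 2 none was called in Treg. Ptpn11, which encodes the phosphatase SHP-2 recruited by PD-1, rose by log2 1.41 in CD44hi (adjusted p = 0.00264) and was lower in Treg than in CD44hi (-1.33, adjusted p = 0.00915). Ptpn6, which encodes SHP-1, was lower in Treg than in naive (log2 -0.95, adjusted p = 0.00675, with -0.13 on 1 of its other probes). Sla, an adaptor that helps remove antigen receptors from the surface, rose by 0.89 in Treg, 1.17 in CD44hi and 0.74 in CD44lo. Dok1, an inhibitory adaptor, rose by 1.09 in Treg and 0.86 in CD44hi, Sh2d1a, the adaptor of SLAM receptors, rose by 0.85 in CD44hi, and Pag1, which anchors the kinase Csk, was lower in Treg by log2 -0.99 (adjusted p = 0.0130).

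Of 15 tested transcription factors known to act on these receptor genes, 6 were higher and 2 lower in Treg, 8 higher and 1 lower in CD44hi, and 5 higher and 0 lower in CD44lo, with list medians of 0.63, 1.02 and 0.79. Beside these counts, 21.9%, 27.8% and 5.29% of all tested genes were called in Treg, CD44hi and CD44lo. Tox2 has no probe of that name in the files. Foxp3, the defining factor of regulatory T cells, rose by log2 7.77 in Treg, 4.88 in CD44hi and 5.64 in CD44lo. Tbx21, which encodes T-bet, rose by 3.82, 6.68 and 4.17, Maf by 4.15, 4.91 and 4.40 (0.70, 1.48 and 1.25 on 1 of its other probes), and Irf4 by 2.92, 2.61 and 1.89 in the same order of groups. T-bet was higher in CD44hi than in CD44lo by log2 2.51 (adjusted p = 0.0105) and lower in Treg than in CD44hi by log2 -2.86 (adjusted p = 0.00646). The NFAT genes Nfatc1 and Nfatc2, and Tox and Nr4a1, were not called in any of the 6 comparisons on their brightest probes. For Nfatc1 these probe differences from naive were log2 0.59 in Treg, 0.78 in CD44hi and 0.79 in CD44lo. Its other probe gave larger ones, 0.85, 1.92 and 1.20. Nr4a2 was called higher in Treg than in naive (log2 1.52, limma adjusted p = 0.0474).

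**Figure D4:**
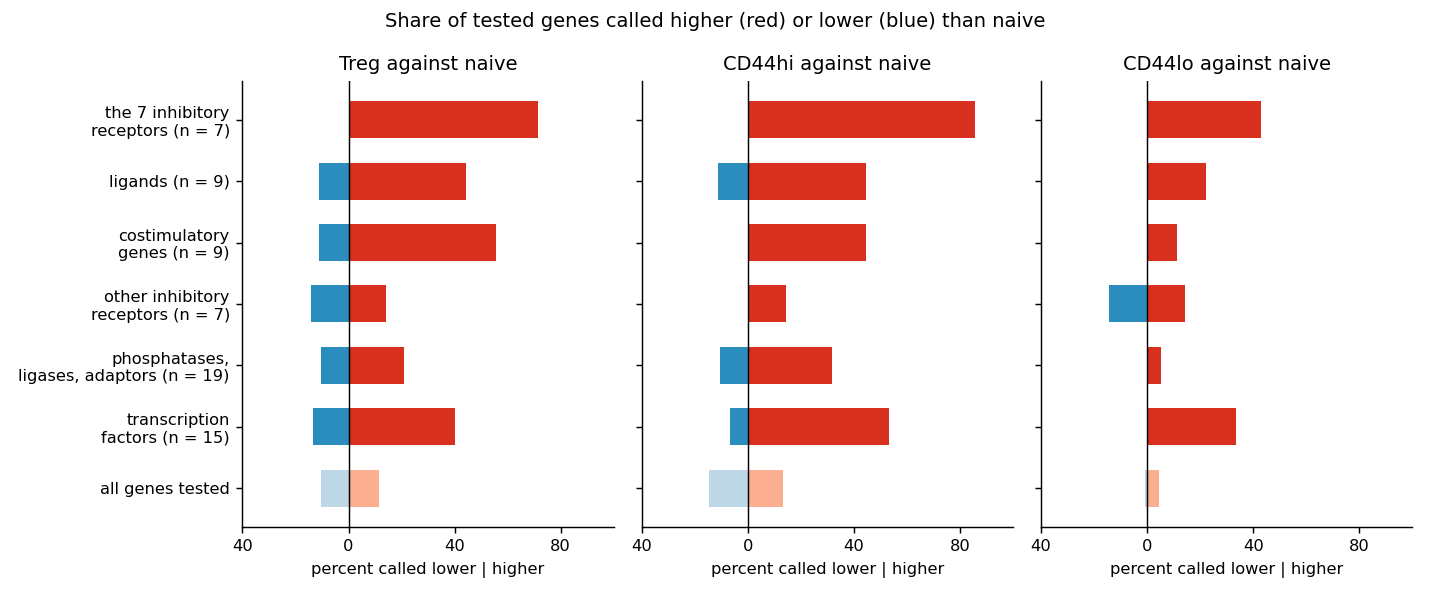
Percent of the tested genes of each list called higher (red, right of 0) or lower (blue, left of 0) than naive at an adjusted p under 0.05, for Treg, CD44hi and CD44lo (x axis: percent of tested genes; n beside each list is the number tested). The pale bars are all genes tested (11.6% higher and 10.3% lower in Treg, 13.2% and 14.5% in CD44hi, 4.53% and 0.761% in CD44lo), and the receptors have no bar on the lower side.

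The labels were checked against marker genes. The T cell markers Cd3e, Cd3d, Cd3g, Cd4 and Cd247 were above background on every array, with a summed signal of 121 to 132 times the 75th percentile in Treg, 147 to 150 in CD44hi, 148 to 152 in CD44lo and 155 to 239 in naive. Cd44 rose over naive by log2 2.12 in CD44hi and by 1.13 in Treg. Of its other probes, 1 gave 0.53 in CD44hi and -0.40 in Treg, and 1 gave 2.43 and 1.31. Il2ra and Tnfrsf4, the gene of Ox40, were highest in Treg (log2 7.17 and 3.50 over naive), as was Foxp3 (7.77). These genes were not limited to Treg. Il2ra, Tnfrsf4 and Foxp3 also rose over naive by log2 2.88, 2.19 and 4.88 in CD44hi. In CD44lo they rose by 3.90, 1.95 and 5.64. B cell markers moved with the receptors: 5 of 8 were above background in Treg, 6 in CD44hi, 5 in CD44lo and 4 in naive, and their summed signal was 4.17 to 4.35, 3.41 to 4.10, 1.57 to 2.31 and 0.229 to 0.412. Cd79b rose over naive by log2 4.40 in Treg, 2.78 in CD44hi and 2.40 in CD44lo and Cd22, not well above background in naive, was at least 28.8-fold, 153-fold and 56.0-fold higher in these groups, in that order. The other Cd22 probe gave smaller rises, log2 2.16, 4.50 and 3.18 against 5.72, 8.12 and 6.68 on the brightest probe. Ms4a1, which encodes CD20, was not well above background in naive and was at least 3.69-fold higher than naive in Treg and 3.36-fold in CD44hi (adjusted p = 0.00958 and 0.00962). Its other probe gave log2 1.32 and 1.43 in these groups, against 2.82 and 2.69 on the brightest. Pax5, the factor that defines the B lineage, had both arrays above background in CD44hi only, and was at least 1.69-fold higher there than in naive (adjusted p = 0.0199). Its other probe, too dim to be tested, gave log2 0.14 in CD44hi. Cd79a was low and not called in any comparison, and Blk was below background in every group. Of 7 B cell markers tested, 3 were called higher than naive in Treg, 4 in CD44hi and 2 in CD44lo, and 0 lower. The summed signal of myeloid and dendritic markers, 8 in number, was 0.598 to 0.899 in Treg, 1.02 to 1.23 in CD44hi, 0.472 to 0.515 in CD44lo and 0.619 to 0.998 in naive. The CD8 and NK list, likewise of 8 genes, summed to 7.86 to 8.20, 6.24 to 6.75, 9.06 to 10.4 and 17.7 to 22.5, with Ncr1 below background in every group. This sum hides opposite moves. Of 7 tested, 3 were called higher and 3 lower than naive in Treg, 3 and 3 in CD44hi, and 2 and 2 in CD44lo. Gzmb and Klrb1c were higher in all 3 groups, and Klra8 in Treg and CD44hi. Cd8b1 and Klrd1 were lower in all 3, and Prf1 in Treg and CD44hi. Cd8b1, with a mean of 3.43 in naive, differed by log2 -0.99 in Treg, -1.67 in CD44hi and -1.10 in CD44lo. Klrd1, with a mean of 2.76 in naive, differed by -5.60, -2.49 and -1.56. Erythroid and platelet markers summed to between 0.116 and 0.487 on all arrays. The part of these other cells in the receptor differences was not tested. The naive arrays were also the dimmest and least alike, with a 75th percentile of 991 and 639 against 1045 to 1337 on the others, and an SD of the log2 differences between replicates of 0.63 against 0.36 to 0.48.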

How the data were processed

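RNA of 8 sorted samples was amplified, labelled with Cy3 and hybridised to 1 Agilent mouse array each, per the labels' protocols. The image software was Feature Extraction 9.5.1.1 of Agilent, as the file headers state. Spot brightness is given in the deposited files as an intensity with no scaling between arrays, and the processed signal used here had already been background-subtracted within each array, per the file headers. The other columns used are flags for each spot (well above background, saturated, outlier), per the file headers. The authors also deposited a value table in log2 units. Its column medians were 6.86 to 6.88 and its values ran in step with the raw median signals (Spearman correlation across probes 0.9999 or above), so it was taken to be quantile-normalized raw signal, with no background removed. The submitters' processing notes name limma and no other step.

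From each array of 45018 spots, 1639 controls were left out. Outlier spots were left out only where the probe had another spot, and spots of a probe were averaged. The 8 receptor probes had 8 spots, so an outlier spot of a receptor would have been kept. Probe names were brought up to date through RefSeq (GRCm38.p6), 22944 by accession, 6664 by symbol and 3108 by older symbol, and 8458 kept the files' name. A gene took the probe with the highest mean over all 8 arrays. Its processed signal was divided by the 75th percentile of the array and put on the log2 scale. A gene was tested if some group had both arrays well above background, which left 17996, of which 13896 have a current symbol. All 6 pairs of groups were compared in 1 fit of all 8 arrays without a block (limma 3.58.1 in R 4.3.3, 4 residual and 2.62 prior degrees of freedom, 2-sided, Benjamini-Hochberg adjusted over all genes tested). The test was checked on simulated data.

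The genes described, the gene lists and the markers were chosen with earlier results of these data known. Named with values were the 7 receptors, for each the 3 genes most like it over the arrays, up to 4 called genes of each list and comparison with naive by size, and genes that check the labels. Cd274, Tnfrsf14, Ceacam1, Cd28, Nfatc1, Nfatc2, Tox, Nr4a1 and Nr4a2 were named after their values were seen. Replicate numbers come from the titles, which do not say that they are separate animals. A p-value here therefore reflects only how far these samples spread, and that may be technical. Each of the 2 slides held 1 array of every group, and differences within slides are given. With 2 arrays a group, the number of arrays limits the precision. Alternatives were normexp background correction (offset 50), quantile normalization, the authors' table, other filters on dim probes, the slide as a term, the replicate number as a block, the mean of a gene's probes, every probe on its own, a fit of the compared groups alone, an intensity trend in the variance, and leaving out each array.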

Additional observations from a re-analysis of the deposited data

How the results depend on the processing

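Of the 42 single differences of the receptors, those of Ctla4, Pdcd1 and Lag3 over naive in Treg, CD44hi and CD44lo were called under all 19 alternatives, as were Havcr2 in Treg and Cd160 in Treg and CD44hi. The number of receptors called stayed at 5 in Treg against naive throughout, ranged from 5 to 7 in CD44hi against naive and from 3 to 4 in CD44lo against naive, and leaving out 1 array gave 5 to 5, 5 to 6 and 3 to 3. CD44hi against CD44lo called 2 receptors in the authors' deposited table, 2 with the replicate block and 0 with the mean of probes, and 1 to 1 when leaving out 1 array. Treg against CD44hi called 1 without a filter on dim probes and 4 with the replicate block, and 0 to 2 when leaving out 1 array (0 without Treg array 1). In the authors' deposited table, after normexp correction and with an intensity trend, this comparison called Pdcd1 in addition to Ctla4 and Btla. A fit of the compared groups alone called Lag3 in addition to them. Treg against CD44lo called 1 without a filter and 1 with the mean of probes, and 1 to 2 when leaving out 1 array (1 without any array of Treg or CD44lo). The cause of these moves was not tested. Without a filter more genes were tested, and the standard errors were larger as well (0.24 against 0.22 for Ctla4 and 0.16 against 0.14 for Btla).

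The replicate number was taken as a shared number only: same-numbered arrays deviated together with correlations across genes of 0.0564 to 0.332. With the replicate block, the added calls were Cd160 in CD44hi against CD44lo (adjusted p = 0.0166), Cd160 in CD44lo against naive (adjusted p = 0.00703), and Pdcd1 and Havcr2 in Treg against CD44hi (adjusted p = 0.0276 and 0.0195). The slide as a term changed no call. Signs that turned were all of uncalled differences. Leaving out 1 array, Cd5 ranged from -0.11 to 0.20 in CD44lo against naive (negative without CD44lo array 1 or naive array 1) and from -0.23 to 0.0794 in Treg against naive (positive without Treg array 2 or naive array 2), and in Treg it was 0.30 in the authors' deposited table and 0.36 after quantile normalization. Havcr2 in CD44lo against naive ranged from -0.0084 to 0.52 (negative without naive array 1), and was -0.12 after normexp correction and -0.14 with the mean of probes. In Treg against CD44lo, Lag3 ranged from -0.29 to 0.46 (negative without CD44lo array 1) and Pdcd1 from -0.76 to 0.0536 (positive without CD44lo array 2). Over all genes, the alternatives called 2301 to 5202 in Treg against naive (3941 in the main fit), 2610 to 6924 in CD44hi against naive (4998) and 606 to 1273 in CD44lo against naive (952). Leaving out 1 array gave 1789 to 9200, 2594 to 9231 and 506 to 7191, the highest each time without naive array 1. Among the other groups the alternatives called 776 to 2125 in Treg against CD44hi (1474), 382 to 1398 in Treg against CD44lo (1001) and 842 to 2263 in CD44hi against CD44lo (1686). Leaving out 1 array gave 535 (without Treg array 1) to 2635, 188 (without CD44lo array 1) to 1641 and 513 (without CD44lo array 1) to 2765, the highest each time without either naive array. Of the counts of the 5 other gene lists, 75 of 330 moved by over 1.5 times under the alternatives and 89 of 240 when leaving out 1 array. The widest was the list of phosphatases, ligases and adaptors, with 0 to 13 called in Treg against naive, 3 to 12 in CD44hi and 0 to 6 in CD44lo when leaving out 1 array, the highest each time without naive array 1.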
